A study of Mus musculus with 96 samples.

Results

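The genes described here are Kalrn, Map6d1, Pknox2, Myh7, Myo5c, Adam33, Plk5, Gpr153, Tenm2 and Zfpm2. They were chosen as genes away from mouse chromosome 5, the chromosome of Htt, whose transcript level differed with the Q140 allele in cerebral cortex. They are 10 of the 48795 genes in the deposited table. The choice rests on measured values: 46 of 17622 genes tested in cortex passed an adjusted p of 0.05 in at least 1 of 3 comparisons of mice with and without Q140, and 40 of these 46 lay off chromosome 5. The 10 genes are among the 30 of those 40 that were lower with Q140, and no rule for taking these 10 of the 30 is given. Their cortical Q140 differences are therefore given as a description with no test.

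RNA was sequenced from the cerebral cortex and the striatum of 48 mice aged 6 months on a C57BL/6 background, 8 of each of 6 genotypes, with 4 females and 4 males per genotype. The genotypes were wild type; Q140, labelled as heterozygous for the knock-in; Msh6+/-; Q140 Msh6+/-; Msh6-/-; and Q140 Msh6-/-. Q140 is a knock-in of an expanded CAG repeat into the mouse's own Htt gene, so the allele is driven by the Htt promoter in every cell type that uses it. Each mouse gave both tissues, so the cortical and striatal libraries come from the same animals. Both are bulk tissue, in which fewer cells of a type and less RNA per cell cannot be told apart.

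As background, Huntington's disease is caused by an expanded CAG repeat in the huntingtin gene, and the projection neurons of the striatum are the most affected cells, with the cortex also affected. MSH6 is part of the mismatch recognition complex that acts in DNA repair. The 10 genes have no single pathway in common. Kalrn, Map6d1, Myh7, Myo5c and Plk5 encode proteins of the cytoskeleton or of neuronal signalling, Gpr153, Tenm2 and Adam33 encode proteins of the cell surface, and Pknox2 and Zfpm2 encode nuclear regulators of transcription.

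The genes lie on 8 chromosomes. Kalrn, a signalling protein of dendritic spines, lies at chr16:33969073-34573532 on the minus strand (ENSMUSG00000061751, GRCm38). Map6d1, a microtubule-stabilising protein of neurons, lies on the same chromosome at chr16:20233303-20241358 (ENSMUSG00000041205, minus). Pknox2, a homeobox factor of the TALE class, lies at chr9:36890982-37147407 (ENSMUSG00000035934, minus). Myo5c, an unconventional myosin that moves vesicles, is also on chromosome 9, at chr9:75232020-75305451 (ENSMUSG00000033590, plus). Myh7, the slow or beta myosin heavy chain known from heart and slow muscle, lies at chr14:54970684-54994626 (ENSMUSG00000053093, minus). Adam33, a membrane-anchored metalloprotease, lies at chr2:131050591-131063814 (ENSMUSG00000027318, minus). Plk5, a polo-like kinase family member known from brain, lies at chr10:80356459-80365489 (ENSMUSG00000035486, plus). Gpr153, an orphan G protein-coupled receptor, lies at chr4:152274232-152285337 (ENSMUSG00000042804, plus). Tenm2, a teneurin that binds latrophilins across the synapse, lies at chr11:36006656-37235964 (ENSMUSG00000049336, minus). Zfpm2, a zinc finger cofactor of GATA factors, lies at chr15:40655035-41104592 (ENSMUSG00000022306, plus). All 10 are protein-coding in GENCODE M21. Myo5c, Adam33, Plk5 and Gpr153 overlap no other annotated gene. Myh7 lies 3756 bases from its near-identical neighbour Myh6 and overlaps the antisense transcript Mhrt, and Map6d1, Pknox2 and Tenm2 also have genes on the opposite strand. The library kit is stranded, but whether strand was used in counting is not stated in the labels, so the values of Myh7, Map6d1, Pknox2 and Tenm2 are uncertain to the extent that these neighbours were counted with them.

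Promoter sequences are shown for Plk5, Myo5c, Myh7 and Map6d1, 4 genes that fell together in striatum. Each is the 250 bases before the RefSeq start on GRCm38.p6, read in the direction of the gene. Capitals mark matches on either strand to 3 motifs. The motif read by SP1 was searched as GGGCGG, the box that places the start of some genes as TATAAA, and the core of the cAMP response element as TGACG. The regions are chr10:80356209-80356458 (plus strand) for Plk5, chr9:75231764-75232013 (plus) for Myo5c, chr14:54994627-54994876 (minus) for Myh7 and chr16:20241359-20241608 (minus) for Map6d1.
Plk5: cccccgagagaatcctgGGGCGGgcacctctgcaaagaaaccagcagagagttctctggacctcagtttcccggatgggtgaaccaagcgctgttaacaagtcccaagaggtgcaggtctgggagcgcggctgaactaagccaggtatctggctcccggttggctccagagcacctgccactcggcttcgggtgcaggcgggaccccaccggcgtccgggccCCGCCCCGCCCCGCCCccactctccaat
Myo5c: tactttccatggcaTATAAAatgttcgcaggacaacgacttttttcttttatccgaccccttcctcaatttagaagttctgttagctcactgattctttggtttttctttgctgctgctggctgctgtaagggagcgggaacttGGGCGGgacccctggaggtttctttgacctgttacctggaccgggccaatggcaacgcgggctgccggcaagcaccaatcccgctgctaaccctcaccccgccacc
Myh7: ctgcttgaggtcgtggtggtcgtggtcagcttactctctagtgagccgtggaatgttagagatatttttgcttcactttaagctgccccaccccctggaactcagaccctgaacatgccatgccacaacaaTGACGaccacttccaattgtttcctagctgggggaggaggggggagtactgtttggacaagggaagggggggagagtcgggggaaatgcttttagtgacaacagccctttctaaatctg
Map6d1: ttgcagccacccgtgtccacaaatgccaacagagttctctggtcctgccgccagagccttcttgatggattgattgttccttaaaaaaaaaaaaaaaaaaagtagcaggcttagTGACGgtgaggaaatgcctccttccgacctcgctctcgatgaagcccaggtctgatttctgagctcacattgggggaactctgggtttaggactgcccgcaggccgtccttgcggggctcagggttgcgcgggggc

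Plk5 held 4 matches to GGGCGG, 3 of them overlapping in 1 run, and Myo5c held 1 match to GGGCGG and 1 to TATAAA. The TATAAA match lay at bases 15 to 20 of the 250, at the end far from the start of the gene. Myh7 and Map6d1 held 1 match to TGACG each. RefSeq promoters of 300 bases (250 before and 50 after the start) were given for 7 of the 10 genes, with 9 starts in all and none for Pknox2, Adam33 or Zfpm2. GGGCGG was in 4 of these 9 promoters, from 3 of the 7 genes (Plk5, Myo5c and Gpr153), beside 35.7% of 32851 mouse promoters. TGACG was in 3 of the 9, from 2 of the 7 genes (Myh7 and Map6d1), beside 20.8% of all promoters. TATAAA was in 1 (Myo5c), beside 13.6%, and TGACAG, read by TALE homeobox factors, and AGATAA, read by GATA factors, were each in 1 (Tenm2), beside 19.2% and 11.2%. CACGTG, the E-box, was in none of the 9 and in 7.15% of all promoters. No motif was shared by all 4 printed promoters. TGACG and TGACAG overlap in their first 4 letters and were counted separately.

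The libraries held between 12403528 and 22886441 counts each. Msh6 followed the labels, with 18.2 to 20.8 CPM (counts scaled to a common library size with edgeR's TMM method) in wild-type cortex and 7.65 to 10.1 in Msh6-/- cortex, and 14.6 to 18.4 against 6.93 to 11.1 in striatum. Sums of markers of striatal projection neurons and of cortical glutamatergic neurons followed the tissue labels. Those of 10 cortical deep-layer neuron markers did not, with a median summed CPM of 380 in wild-type cortex and 955 in wild-type striatum. The summed CPM of 10 striatal projection neuron markers had a median of 253 in wild-type cortex and 10880 in wild-type striatum. For 7 markers of cortical glutamatergic neurons the medians were 1956 and 3.89. Their highest sum in a striatal library was 20.0, in a Q140 Msh6-/- mouse. Of the 4 such markers tested in striatum, 2, 1 and 2 were called higher with Q140 in Msh6+/+, Msh6+/- and Msh6-/- mice, and 0 lower. Over all genes tested, 15.5%, 16.3% and 17.8% were called higher. The cause of these rises was not tested. A Q140 Msh6-/- striatal library, from mouse 21-3, held choroid plexus transcripts, with a summed CPM of 2797 over 6 markers against a median of 32.9 in its group.

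In cortex, the level of all 10 genes was lower on average with Q140 in Msh6+/- mice, of 9 genes in Msh6-/- mice and of 8 genes in Msh6+/+ mice. None of the 10 passed the threshold in the Msh6+/+ pair, which is Q140 against wild type, while 5 passed in the Msh6+/- pair and 8 in the Msh6-/- pair. The shares of all genes tested that were called lower in these pairs were 0%, 0.119% and 0.0908%, and higher 0.017%, 0.0738% and 0.0454%. DESeq2, which gave an adjusted p to 882, 2590 and 16597 of the genes in the 3 pairs, called 21, 119 and 23 lower and 1, 26 and 12 higher. These contrasts chose the genes, so nothing is read from the counts. Kalrn, Map6d1 and Pknox2 passed in both Msh6-deficient pairs. Tenm2 and Zfpm2 passed in the Msh6+/- pair, and Myh7, Myo5c, Adam33, Plk5 and Gpr153 in the Msh6-/- pair. The gene nearest inside the threshold of 0.05 was Pknox2 in the Msh6+/- pair, at an adjusted value of 0.0437, and the nearest outside was Myo5c in the same pair, at 0.109. The ranges of the 8 mice with and the 8 without Q140 overlapped for all 10 genes in all 3 pairs, and all Q140 mice lay below all their partners for 0.00567%, 0.034% and 0.017% of genes tested.

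**Figure D1:**
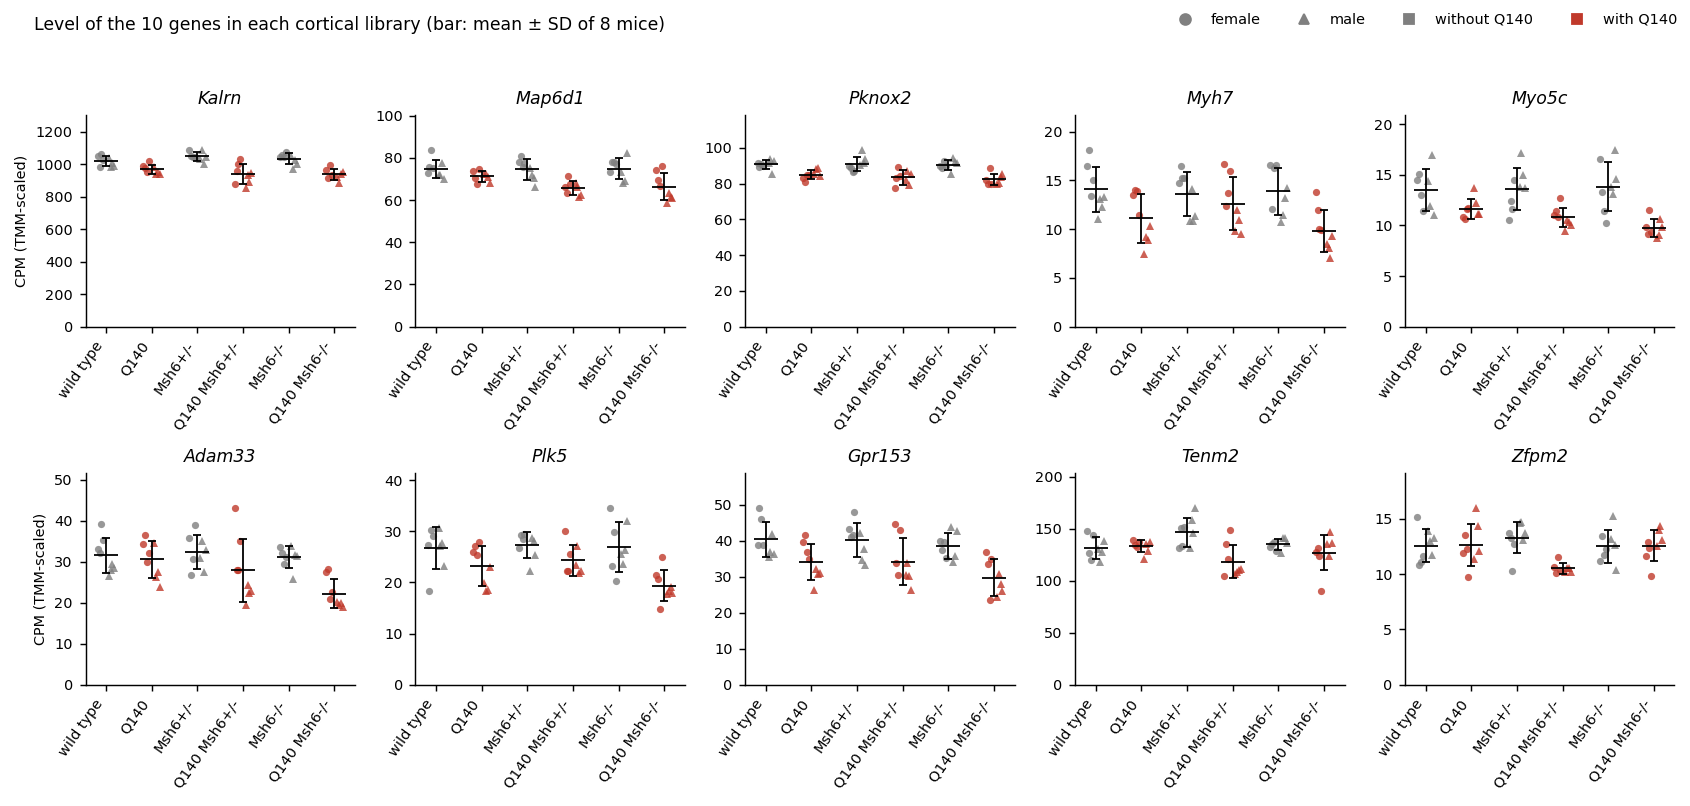
Level of each gene in the 48 cortical libraries, as CPM scaled by TMM (vertical axis, from 0), by genotype (horizontal axis). Circles are females, triangles males, red marks genotypes with Q140, and bars give the mean and SD of 8 mice. Q140 groups overlap their partners in every panel, and the lowest Adam33 and Plk5 means are those of Q140 Msh6-/- mice.

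Among the cytoskeletal and signalling genes, Kalrn had the highest counts in cortex. Its lowest, median and highest CPM were 983, 1018 and 1062 in wild type and 939, 966 and 1023 in Q140 mice. In Msh6+/- mice they were 1003, 1048 and 1087 without Q140 and 852, 942 and 1033 with it, and in Msh6-/- mice 974, 1047 and 1076 without and 882, 935 and 996 with it. In both Msh6-deficient pairs 7 of 8 Q140 mice lay below the lowest mouse without Q140, and in the Msh6+/+ pair 5 of 8. The log2 fold changes were -0.07 ± 0.03 (SE), -0.16 ± 0.03 and -0.14 ± 0.03 in Msh6+/+, Msh6+/- and Msh6-/- mice. Map6d1 showed log2 fold changes of -0.07 ± 0.04, -0.18 ± 0.04 and -0.18 ± 0.04 in the same order. Its mean CPM was 74.8 ± 4.33 (SD, n = 8) in wild type and 71.2 ± 2.54 in Q140, and 74.9 ± 4.81 in Msh6-/- against 66.3 ± 6.48 in Q140 Msh6-/- mice.

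The 2 myosins and Plk5 had lower counts. Myh7 ranged from 11.0 to 18.1 CPM (median 13.3) in wild type and from 7.49 to 14.0 (median 10.9) in Q140 mice, and from 10.7 to 16.6 (median 13.7) in Msh6-/- against 7.05 to 13.8 (median 9.60) in Q140 Msh6-/- mice. Its log2 fold changes were -0.35 ± 0.08, -0.11 ± 0.08 and -0.51 ± 0.08, with the Msh6+/- pair the smallest. For Myo5c the values were -0.22 ± 0.09, -0.33 ± 0.09 and -0.50 ± 0.09. Myo5c ranged from 10.2 to 17.5 CPM (median 13.6) in Msh6-/- mice and from 8.78 to 11.5 (median 9.60) in Q140 Msh6-/- mice, where 6 of 8 mice lay below the lowest mouse without Q140. Plk5 had log2 fold changes of -0.21 ± 0.10, -0.17 ± 0.09 and -0.48 ± 0.10, and ranged from 20.3 to 34.5 CPM (median 26.0) in Msh6-/- against 14.8 to 24.9 (median 18.7) in Q140 Msh6-/- mice.

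Among the cell surface genes, Gpr153 had log2 fold changes of -0.25 ± 0.08, -0.24 ± 0.08 and -0.38 ± 0.08. Its ranges were 35.3 to 49.0 CPM (median 38.7) in wild type and 26.3 to 41.5 (median 33.4) in Q140 mice. Adam33 had log2 fold changes of -0.04 ± 0.09, -0.23 ± 0.09 and -0.50 ± 0.09. It ranged from 26.6 to 39.3 CPM (median 30.7) in wild type, 23.7 to 36.5 (median 31.0) in Q140, 19.5 to 43.0 (median 26.1) in Q140 Msh6+/- and 19.0 to 28.2 (median 20.5) in Q140 Msh6-/- mice. The Q140 median was as high as the wild-type median, and the Q140 Msh6-/- median was the lowest of the 6 groups. Tenm2 was 0.02 ± 0.07 in Msh6+/+, -0.31 ± 0.07 in Msh6+/- and -0.09 ± 0.07 in Msh6-/- mice. Its median CPM was 129 in wild type, 135 in Q140, 148 in Msh6+/-, 111 in Q140 Msh6+/-, 135 in Msh6-/- and 129.7 in Q140 Msh6-/- mice, so the Msh6+/- pair holds both the highest and the lowest median.

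Of the transcription regulators, Pknox2 had log2 fold changes of -0.09 ± 0.03, -0.12 ± 0.03 and -0.14 ± 0.03. Its CPM ran from 85.5 to 93.9 (median 91.4) in wild type and from 81.0 to 88.9 (median 84.8) in Q140 mice, and all 8 Q140 mice of each pair lay below the mean of their partners. Zfpm2 was lower in the Msh6+/- pair, with a log2 fold change of -0.33 ± 0.08, beside 0.00 ± 0.08 and 0.00 ± 0.07 in the other pairs. It ranged from 10.3 to 14.7 CPM (median 13.5) in Msh6+/- and from 10.1 to 11.6 (median 10.5) in Q140 Msh6+/- mice.

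In cortex, the 8 markers of upper-layer neurons had a median summed CPM of 1527 in wild type and 1460 in Q140, 1510 and 1433 in the Msh6+/- pair, and 1529 and 1409 in the Msh6-/- pair. Of these 8 markers, 1 was called lower in the Msh6+/- pair and 1 in the Msh6-/- pair, beside 0.119% and 0.0908% of all genes tested. It was Lamp5 in both. Deep-layer markers had medians of 380 and 366, 391 and 378, and 374 and 398 in the same order, and 0 were called. Glutamatergic markers had 1956 and 1882, 1961 and 1949, and 1930 and 1912, and 0 were called. Of 10 striatal projection neuron markers 1 was called higher in the Msh6-/- pair, beside 0.0454% of all genes. No marker of oligodendrocytes, astrocytes, microglia or endothelial cells was called in any of the 3 pairs by edgeR's quasi-likelihood test. The part of these shifts in the members' differences was not tested.

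**Figure D2:**
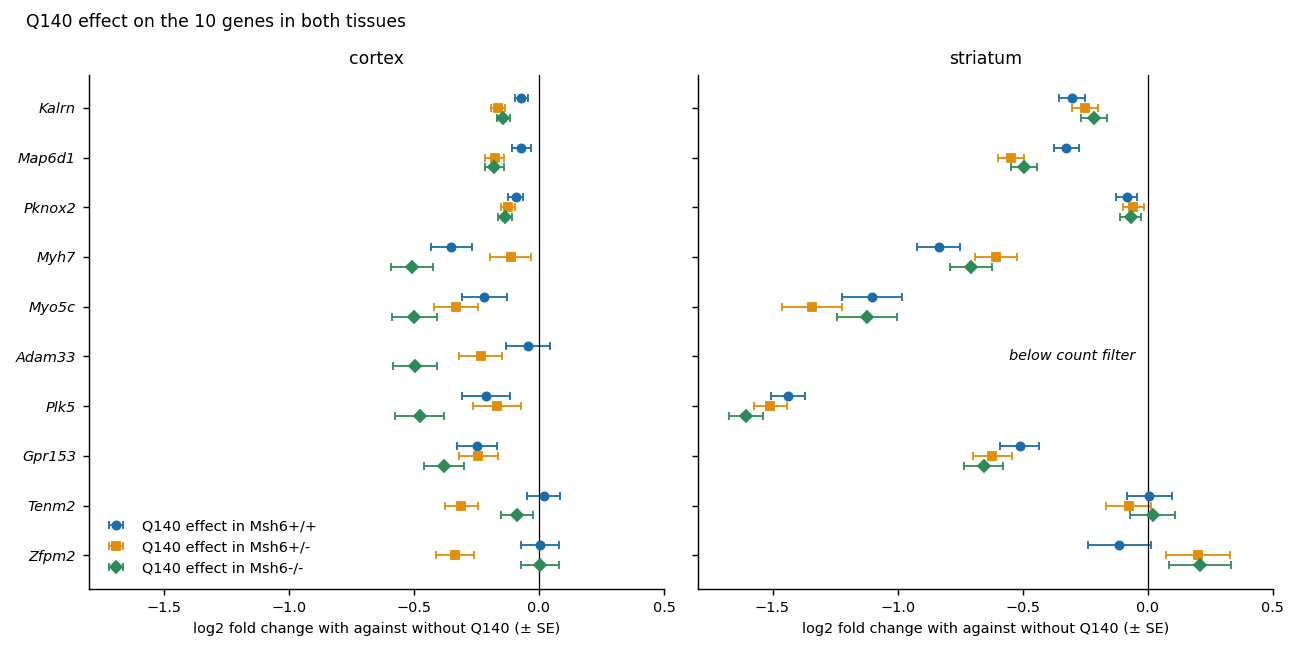
Log2 fold change of each gene with against without Q140 (horizontal axis, points with SE) in cortex and striatum, with 1 point for each Msh6 genotype. Cortical values chose the genes. In striatum Plk5 lies between -1.44 and -1.61 and Myo5c between -1.10 and -1.34, while Pknox2 and Tenm2 lie near 0 and Adam33 was below the count filter.

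In striatum 6 of the 9 genes tested fell with Q140 in each of the 3 pairs and none rose. The rule used no striatal value, but the 10 genes were picked with earlier results of these data in view, so the pick is not shown to be independent of the striatal values. Kalrn, Map6d1, Myh7, Myo5c, Plk5 and Gpr153 fell, Pknox2, Tenm2 and Zfpm2 did not pass, and Adam33 was below the count filter. Of all genes tested in striatum, 14.2% were called lower in the Msh6+/+ pair, 14.9% in the Msh6+/- pair and 15.2% in the Msh6-/- pair, and 15.5%, 16.3% and 17.8% were called higher. In limma-trend on FPKM plus 0.1 the balance was different, with 1509, 1751 and 1657 of 20317 genes lower and 5370, 5144 and 5648 higher, and 6 members were again called lower in each pair. The same 6 genes were called in all 3 pairs, which share no mice but come from the same fit, with the same estimate of the spread. The median log2 fold change of the 9 tested was -0.33, -0.55 and -0.49 in the 3 pairs, beside 0.01, 0.01 and 0.02 over all genes tested. The ranges of mice with and without Q140 did not overlap for 4 genes in the Msh6+/+ pair and for 5 in each of the others. All Q140 mice lay below all their partners for 4.21%, 4.91% and 4.8% of genes tested.

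**Figure D3:**
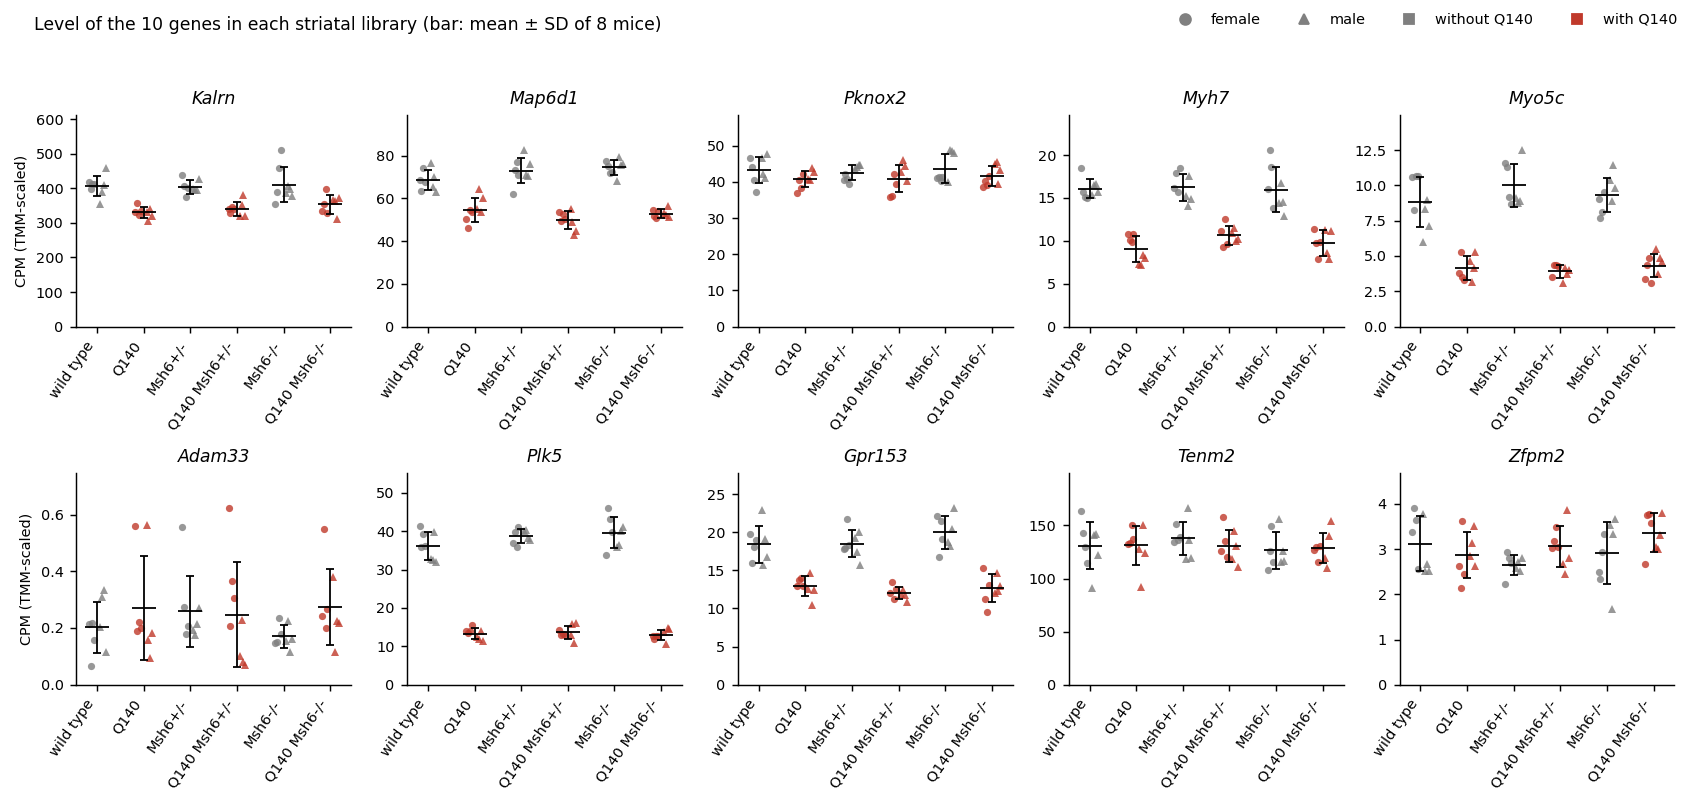
Level of each gene in the 48 striatal libraries, as CPM scaled by TMM (vertical axis, from 0), by genotype (horizontal axis). Circles are females, triangles males, red marks genotypes with Q140, and bars give the mean and SD of 8 mice. Plk5, Myo5c, Myh7 and Gpr153 show no overlap between mice with and without Q140 in any pair, and Adam33 stays under 1 CPM in every library.

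Plk5 had the largest difference of the 9 genes tested. Its lowest, median and highest striatal CPM were 32.1, 36.1 and 41.3 in wild type and 11.3, 13.7 and 15.6 in Q140 mice. In Msh6+/- mice they were 35.8, 39.0 and 41.1 without Q140 and 10.9, 13.1 and 16.0 with it, and in Msh6-/- mice 33.8, 39.9 and 46.0 without and 10.6, 12.7 and 14.7 with it. Every Q140 mouse lay below every mouse without Q140. By edgeR's quasi-likelihood test Plk5 fell by 1.44 ± 0.07, 1.51 ± 0.07 and 1.61 ± 0.07 on the log2 scale (SE), with adjusted p = 7.02e-23, 1.05e-23 and 5.69e-25 after Benjamini-Hochberg adjustment.

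Both myosins fell. Myo5c had a lowest, median and highest striatal CPM of 5.99, 8.62 and 10.7 in wild type and 3.13, 3.96 and 5.27 in Q140 mice. In the Msh6+/- pair these were 8.66, 9.13 and 12.5 against 3.08, 4.06 and 4.37, and in the Msh6-/- pair 7.69, 9.26 and 11.4 against 3.09, 4.47 and 5.49. The groups did not overlap in any pair. Myo5c fell by 1.10 ± 0.12, 1.34 ± 0.12 and 1.12 ± 0.12 on the log2 scale (edgeR adjusted p = 2.15e-10, 5.72e-13 and 7.98e-11). Myh7 ran from 15.0 to 18.5 CPM (median 15.7) in wild type and from 7.15 to 10.8 (median 9.09) in Q140 mice, from 14.1 to 18.5 (median 15.9) against 9.26 to 12.6 (median 10.6) in the Msh6+/- pair, and from 12.9 to 20.6 (median 15.3) against 7.91 to 11.4 (median 9.79) in the Msh6-/- pair. It too had no overlap, and fell by 0.84 ± 0.09, 0.61 ± 0.08 and 0.71 ± 0.08 (edgeR adjusted p = 2.74e-11, 8.42e-08 and 1.96e-09).

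Gpr153, Map6d1 and Kalrn fell as well. Gpr153 ran from 15.6 to 22.9 CPM (median 18.6) in wild type and from 10.4 to 14.7 (median 12.9) in Q140 mice, and was separated from its partners in all 3 pairs. It fell by 0.51 ± 0.08, 0.62 ± 0.08 and 0.65 ± 0.08 on the log2 scale (edgeR adjusted p = 7.74e-07, 1.17e-08 and 1.78e-09). Map6d1 ran from 62.9 to 76.6 CPM (median 68.2) in wild type and from 46.3 to 64.4 (median 54.1) in Q140 mice, which overlap, while both Msh6-deficient pairs were separated. It fell by 0.33 ± 0.05, 0.55 ± 0.05 and 0.49 ± 0.05 (edgeR adjusted p = 1.36e-06, 2.34e-12 and 3.69e-11). Kalrn ran from 355 to 460 CPM (median 411) in wild type and from 305 to 359 (median 331) in Q140 mice, and its groups overlapped in all 3 pairs. It fell by 0.30 ± 0.05, 0.25 ± 0.05 and 0.21 ± 0.05 (edgeR adjusted p = 5.89e-06, 0.000119 and 0.000798).

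Pknox2, Tenm2 and Zfpm2 did not pass in striatum. Pknox2 had medians of 43.1 CPM in wild type and 40.7 in Q140 mice, and log2 fold changes of -0.08 ± 0.04, -0.06 ± 0.04 and -0.07 ± 0.04 (edgeR adjusted p = 0.130, 0.326 and 0.226). In limma-trend on FPKM plus 0.1 its values were -0.01, 0.003 and 0.006, so its sign turned in both Msh6-deficient pairs. Tenm2 had medians of 135 CPM in wild type and 133 in Q140 mice, with log2 fold changes of 0.00 ± 0.09, -0.08 ± 0.09 and 0.02 ± 0.09. Zfpm2 had a median of 3.02 CPM in wild type and 2.74 in Q140 mice, and its log2 fold changes of -0.11 ± 0.12, 0.20 ± 0.13 and 0.21 ± 0.12 differed in sign. The smallest edgeR adjusted p of Tenm2 and Zfpm2 in these pairs was 0.207. Adam33 had 1 to 13 counts in any striatal library, or 0.0651 to 0.622 CPM. Its mean was 0.202 ± 0.0907 CPM (SD, n = 8) in wild type and 0.270 ± 0.183 in Q140 mice, 0.258 ± 0.126 and 0.247 ± 0.186 in the Msh6+/- pair, and 0.170 ± 0.0404 and 0.274 ± 0.133 in the Msh6-/- pair, with overlapping ranges. In the fit without the count filter its log2 fold changes were 0.37 ± 0.37, -0.02 ± 0.36 and 0.62 ± 0.38, and none passed (smallest edgeR adjusted p = 0.327).

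The striatal falls stand beside a fall in marker genes of striatal projection neurons. Of 10 such markers, 9 were called lower and 1 higher in each pair, with median log2 fold changes of -0.65, -0.65 and -0.66. Their summed CPM ran from 10149 to 11641 in wild type and from 6246 to 6726 in Q140 mice, from 10296 to 11923 against 6206 to 6610 in the Msh6+/- pair, and from 9716 to 12605 against 6200 to 7073 in the Msh6-/- pair. None of the 10 markers was at 0 in any striatal library. Plk5 and Myo5c fell by more than the markers' median in each pair, and Kalrn, Map6d1 and Gpr153 by less. Myh7 fell by more in the Msh6+/+ and Msh6-/- pairs and by less in the Msh6+/- pair. Astrocyte, microglial and endothelial sums were lower too, with medians of 4040, 312 and 157 CPM in wild type and 3352, 274 and 132 in Q140 mice. The part of these marker shifts in the members' differences was not tested. Without the library that held choroid plexus transcripts, an alternative chosen after the data were seen, 6 of 9 genes were again called lower in the Msh6-/- pair, with Plk5 at -1.62 ± 0.07 and Kalrn at -0.22 ± 0.05.

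The size of the striatal Q140 difference was not shown to depend on Msh6. For the Q140 effect in Msh6-/- minus that in Msh6+/+ mice, none of the 9 genes passed by edgeR (smallest adjusted p = 0.965), and 1 had an unadjusted p under 0.05. That gene was Map6d1, with a difference of -0.17 ± 0.07 on the log2 scale. For Msh6+/- minus Msh6+/+ mice none passed either (smallest adjusted p = 0.996), and Map6d1, with -0.22 ± 0.07, was again the gene with an unadjusted p under 0.05. Over all genes tested 0% were called in either interaction. For Plk5 the differences were -0.17 ± 0.10 and -0.07 ± 0.10, and for Zfpm2 they were 0.32 ± 0.18 and 0.31 ± 0.18. In DESeq2 the counts of members called were also 0.

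Without Q140, no member passed in a comparison of Msh6 genotypes. In cortex both groups of each such comparison are also among those from which the genes were chosen, so the values are a description and nothing is read from the counts. There, Msh6-/- against wild type gave log2 fold changes between -0.06 and 0.04 (0 called by edgeR, 0 with an unadjusted p under 0.05, 0.131% of all genes called), and Msh6+/- against wild type gave values between -0.05 and 0.16 (0 called, 1 with an unadjusted p under 0.05, 0.00567% of all genes). The highest of these was Tenm2, at 0.16 ± 0.06 in Msh6+/- mice. In striatum the values lay between -0.10 and 0.13 for Msh6-/- and between -0.23 and 0.18 for Msh6+/- mice, with 0 of 9 called in each (2 and 0 with an unadjusted p under 0.05, 0.0971% and 0.0114% of all genes called). The 2 were Map6d1, at 0.12, and Plk5, at 0.13. DESeq2 also called 0 members in these comparisons.

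Among mice with Q140, the largest difference by Msh6 genotype among the members tested was that of Adam33 in cortex. Its CPM of 19.0 to 28.2 in Q140 Msh6-/- mice was lower on average than the 23.7 to 36.5 of Q140 mice, with a log2 difference of -0.47 ± 0.09 and overlapping ranges. It was the 1 member of 10 past the threshold in that comparison, where 0.0738% of genes tested were called lower and 0.153% in either direction, but the libraries are those from which the gene was chosen, so no p is given. The other 9 genes were not called, with differences between -0.26 ± 0.10 (Plk5) and -0.01 ± 0.07 (Zfpm2), all below 0. Q140 Msh6+/- against Q140 mice gave 0 called in cortex, with 8 of 10 differences below 0 and 0.0113% of all genes called. In striatum 0 of 9 members were called in Q140 Msh6-/- against Q140 mice (0 with an unadjusted p under 0.05, smallest edgeR adjusted p = 0.918, 0.177% of all genes called), and 0 of 9 in Q140 Msh6+/- against Q140 mice (2 with an unadjusted p under 0.05, 0.00571% of all genes).

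**Figure D4:**
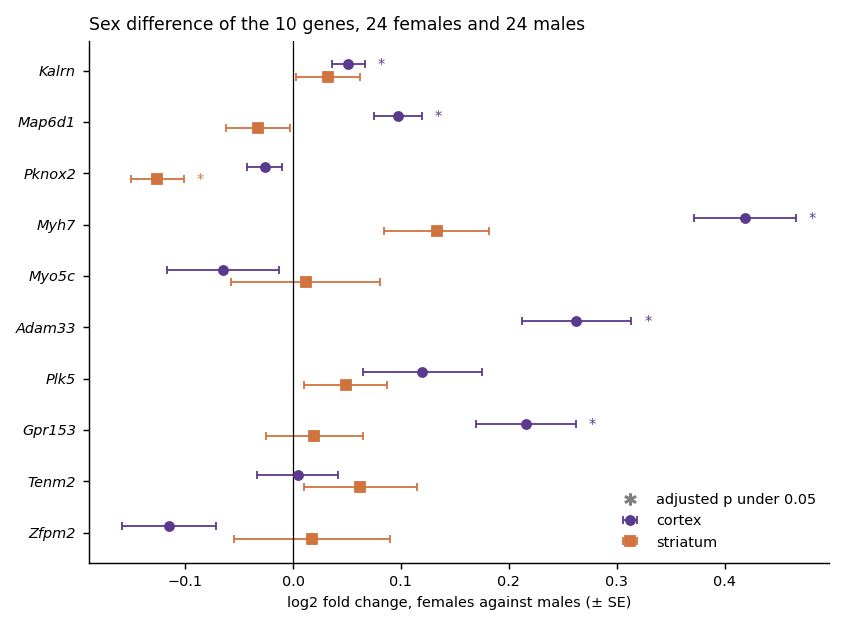
Log2 fold change of each gene in females against males (horizontal axis, points with SE), in cortex (circles) and striatum (squares), from the fit with genotype as a term, with asterisks at an adjusted p under 0.05. Myh7 in cortex lies at 0.42, and Adam33 has no striatal point because it was below the count filter.

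Several of the genes differed on average by sex in cortex, a term that the choice did not use. The values come from the fit that chose the genes, with the same cortical libraries and the same spread per gene. The p-values and the count of genes called are therefore not independent of the choice. Kalrn, Map6d1, Myh7, Adam33 and Gpr153 were higher in females and none was lower, 5 of 10 beside 3.48% of all genes tested that were called higher and 2.83% that were called lower. Myh7 had the largest difference: its lowest, median and highest cortical CPM were 9.87, 14.4 and 18.1 in 24 females and 7.05, 10.8 and 14.2 in 24 males. The ranges overlapped over the mixed genotypes, and the female mean was the higher in 6 of 6 genotypes. The log2 fold change was 0.42 ± 0.05 (edgeR adjusted p = 8.82e-09). Adam33 had a median of 32.1 CPM in females and 27.0 in males, with the female mean higher in 6 of 6 genotypes, and a log2 fold change of 0.26 ± 0.05 (edgeR adjusted p = 0.000611). Gpr153 had medians of 39.2 and 33.6 CPM, with a higher female mean in 5 of 6 genotypes, and a log2 fold change of 0.22 ± 0.05 (edgeR adjusted p = 0.00203).

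Map6d1 and Kalrn were the other 2 genes called. Map6d1 had medians of 74.3 CPM in females and 69.6 in males, and a log2 fold change of 0.10 ± 0.02 (edgeR adjusted p = 0.00405). Kalrn had medians of 1026 and 978 CPM and a log2 fold change of 0.05 ± 0.02 (edgeR adjusted p = 0.0318), a call that was lost without the count filter (adjusted p = 0.0885) and in limma-trend on FPKM (adjusted p = 0.0589). Both were higher in females in 6 of 6 genotypes.

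In striatum Pknox2 was lower in females, at 35.7 to 46.6 CPM (median 40.5) against 39.5 to 48.8 in males (median 44.0), with the female mean lower in 6 of 6 genotypes and a log2 fold change of -0.13 ± 0.02 (edgeR adjusted p = 0.000931). It was the 1 gene of 9 called, beside 2.43% of all genes called lower and 3.11% called higher. Myh7 in striatum was 0.13 ± 0.05 (edgeR adjusted p = 0.0953). Whether the sex difference of a gene differs between the tissues was not tested.

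**Figure D5:**
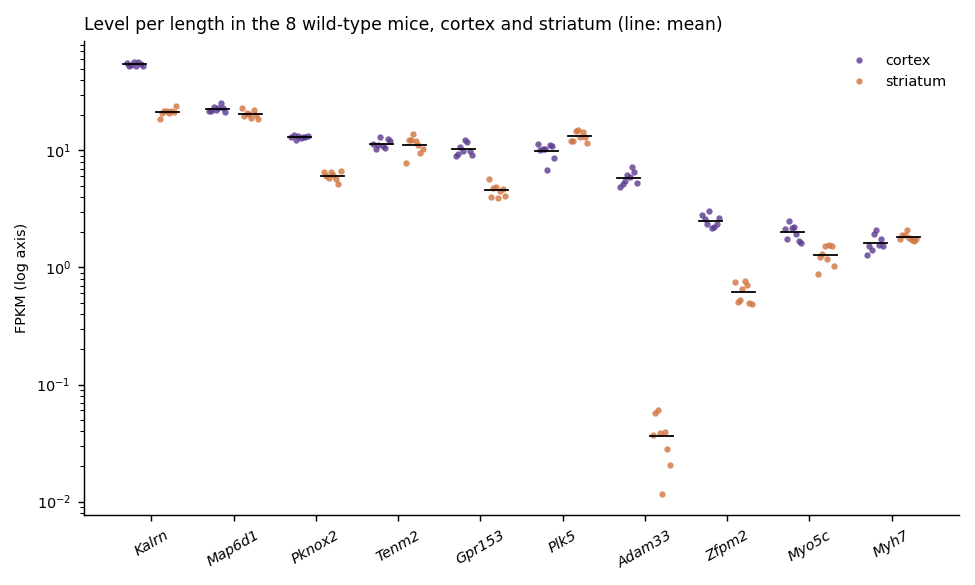
Level of each gene per length, as FPKM on a log axis, in the 8 wild-type mice in cortex (purple) and striatum (orange), with the mean as a line and genes in the order of their cortical mean. Kalrn has the highest mean in both tissues, and Adam33 drops from 5.82 FPKM in cortex to 0.0366 in striatum.

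In wild-type mice 7 of the 10 were lower in striatum than in cortex and 1, Plk5, was higher, beside 36.5% and 35.9% of all 18440 genes tested. A gene had to be measured in cortex to be chosen, which favours genes that are high there, so nothing is read from the count. Adam33 had 26.6 to 39.3 CPM in cortex and 0.0651 to 0.335 in striatum, or 1 to 6 counts per striatal library. The log2 difference was -7.24 ± 0.16, and it lay between -7.28 and -2.71 under the alternatives. Adam33 passed the count filter of this fit only through its cortical libraries, so no p is given for it. Zfpm2 was lower by -2.04 ± 0.10, Kalrn by -1.35 ± 0.04, Gpr153 by -1.15 ± 0.08, Pknox2 by -1.10 ± 0.04, Myo5c by -0.65 ± 0.10 and Map6d1 by -0.15 ± 0.05. Plk5 was higher in striatum by 0.40 ± 0.08 (edgeR adjusted p = 9.35e-06), with 32.1 to 41.3 CPM against 18.3 to 30.7 in cortex. The fit behind these SE and p-values held no term for the mouse, so both libraries of a mouse were treated as independent. The wild-type cortical libraries are also among those from which the genes were chosen. Myh7 (0.18 ± 0.09, edgeR adjusted p = 0.0648) and Tenm2 (-0.04 ± 0.08, edgeR adjusted p = 0.701) did not pass. With the Myh7 fit limited to the wild-type libraries, its adjusted p was 0.0370.

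Per length, the order in wild-type cortex ran from Kalrn (54.3 ± 1.79 FPKM, SD, n = 8) through Map6d1 (22.7 ± 1.29), Pknox2 (13.0 ± 0.379), Tenm2 (11.4 ± 0.973), Gpr153 (10.3 ± 1.22), Plk5 (9.93 ± 1.55), Adam33 (5.82 ± 0.783), Zfpm2 (2.52 ± 0.310) and Myo5c (2.00 ± 0.305) to Myh7 (1.63 ± 0.267). Kalrn, Map6d1 and Pknox2 had ranges separate from each other, as did Adam33 and Zfpm2, while neighbours from Pknox2 to Adam33 and from Zfpm2 to Myh7 overlapped. In wild-type striatum Kalrn (21.2 ± 1.40) and Map6d1 (20.4 ± 1.54) overlapped, Plk5 came next with 13.2 ± 1.30 FPKM, and Adam33 was the lowest with 0.0366 ± 0.0168.

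The level of a gene in the cortex and the striatum of the same mouse was compared within genotype and sex. Over 48 mice, with genotype and sex removed from log2 CPM, 2 of the 10 correlations between the tissues passed after adjustment over the 10 genes. They were Adam33 (Pearson r = 0.438, permutation p = 0.00152, adjusted p = 0.0152) and Gpr153 (r = 0.379, permutation p = 0.00820, adjusted p = 0.0410). Spearman's rank correlation was 0.381 for Adam33 (permutation p = 0.00779, adjusted p = 0.0779) and 0.331 for Gpr153 (permutation p = 0.0220, adjusted p = 0.110), neither of which passed. Without the 2 mice farthest from the cortical median r was 0.365 and 0.288. With the animal number's prefix also removed, Gpr153 had r = 0.360 (adjusted p = 0.0610) and did not pass. The striatal values of Adam33 rest on 1 to 13 counts. The other 8 genes had r between -0.092 and 0.236, with the smallest adjusted permutation p at 0.290. No such correlation was computed for genes outside the 10. The count of 2 therefore has no share over all genes beside it, and nothing is read from it.

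Within groups the members varied in both directions relative to each other. With genotype and sex removed, the 45 pairwise correlations over 48 libraries ran from -0.509 to 0.484 in cortex, with a median of 0.077, and from -0.483 to 0.372 in striatum, with a median of 0.012. In cortex Kalrn and Pknox2 had the highest (r = 0.484), followed by Adam33 and Gpr153 (r = 0.451), and Pknox2 and Gpr153 (r = -0.509) and Map6d1 and Tenm2 (r = -0.492) the lowest. In striatum Kalrn and Map6d1 had the lowest (r = -0.483). These pairs share libraries and scaling, so the values are a description.

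The genes whose level followed a member most closely are named by the largest Pearson r of log2 CPM over the 48 libraries of a tissue, genotypes included. Other members, predicted or clone-named genes and genes with a mean log2 CPM under 1 were left out of the ranking. The r values hold the differences between mice with and without Q140. For Plk5 in striatum, Spearman's rank correlation was 0.840 with Adcy5 and 0.773 with Scn4b. In striatum these were Adcy5 (r = 0.981) and Scn4b (r = 0.977) for Plk5, Tbc1d8 (0.948) and Strn (0.935) for Myo5c, Car11 (0.908) and Gpd1 (0.904) for Myh7, Dock4 (0.929) and Lrrk2 (0.928) for Kalrn, Gabrd (0.929) and Slc8a2 (0.926) for Map6d1, and Slc8a2 (0.917) and Lynx1 (0.904) for Gpr153. Slc8a2, a sodium-calcium exchanger, is on the lists of both Map6d1 and Gpr153. Tenm2 was most like Dkk3 (0.766) and Pde1c (0.699), Pknox2 like Rapgef1 (0.610) and Tpst2 (0.597), Zfpm2 like Rbbp5 (0.560) and Eif5 (0.531), and Adam33 like Trim17 (0.498) and Hecw1 (0.488). In cortex, Camkk2, a calcium-dependent kinase that lies on chromosome 5, was nearest to Gpr153 (0.839) and to Plk5 (0.729), and Sept5, listed under a date in the deposited table, was second for Gpr153 (0.814) and first for Myh7 (0.744), followed by Nptxr (0.744). Plk5 was next most like Tcap (0.689). Adam33 was most like Cpne9 (0.785) and Slc16a6 (0.691), Kalrn like Tbc1d30 (0.741) and Glg1 (0.724), Map6d1 like Arpp19 (0.739) and Hapln4 (0.735), and Tenm2 like Chl1 (0.730) and Necab1 (0.721). Zfpm2 was most like Tshz2 (0.715) and Npnt (0.672), Myo5c like Hunk (0.684) and Insig1 (0.673), and Pknox2 like Dlgap1 (0.660) and Ddit4l (0.643).

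The families of the members other than Kalrn were followed with lists of genes, for Q140 against wild type. In cortex no other gene of the 8 lists described here was called, beside 0.017% of all genes. Gpr158, an orphan receptor, was called lower in the cortex of the Msh6+/- pair (-0.19 on the log2 scale). In striatum, where 15.5% of all genes were called higher and 14.2% lower, the median log2 fold change of the other genes was below 0 in each of the 8 lists. Genes of 5 lists were called in both directions, and those called in the lists of TALE factors, polo-like kinases and FOG and GATA factors were all lower.

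Of 13 other myosin heavy chains tested in striatum 1 rose and 6 fell, with a median log2 fold change of -0.10 beside 0.01 over all genes. Myh7b, a slow-type heavy chain, fell by 1.14 ± 0.10 on the log2 scale (edgeR adjusted p = 7.60e-14), and the class V myosins Myo5b and Myo5a fell by 0.45 ± 0.04 and 0.22 ± 0.03 (edgeR adjusted p = 5.44e-13 and 4.42e-07). Of 4 other polo-like kinases 1 fell, Plk2, a kinase induced by neuronal activity, by 0.31 ± 0.04 (edgeR adjusted p = 5.38e-08). Of 17 microtubule-associated proteins 5 rose and 4 fell (median -0.003): Stmn2, which destabilises microtubules, rose by 0.80 ± 0.04, while Dclk1 fell by 0.26 ± 0.04 and Map1a by 0.18 ± 0.03.

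Of 12 other orphan receptors 4 rose and 6 fell (median -0.11). Gpr26 fell by 0.65 ± 0.08, while Gpr85 rose by 0.30 ± 0.04. Of 10 other ADAM proteases 1 rose and 6 fell (median -0.11), with Adam11 at -0.17 ± 0.04, Adam17, which sheds membrane proteins, at -0.18 ± 0.05 and Adam12 at -0.52 ± 0.15. Of 9 teneurins, latrophilins and FLRT proteins 4 rose and 3 fell (median -0.08), with the latrophilin Adgrl1 at -0.14 ± 0.03 and Flrt2 and Tenm3 at 0.23 ± 0.05 and 0.24 ± 0.05. Of 10 other TALE factors 2 fell and none rose (median -0.05): Meis2, a factor of striatal projection neurons, fell by 0.30 ± 0.02 and Pknox1 by 0.17 ± 0.05. Both other FOG and GATA factors tested fell, Zfpm1 by 0.38 ± 0.06 and Gata2 by 0.30 ± 0.12, while Zfpm2 itself did not pass.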

How the data were processed

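The deposited tables hold the authors' read counts per gene (whole numbers) and FPKM values for 48795 genes and 96 libraries. The submitters' processing notes name STAR 2.7.5c, SAMtools 1.10, HTSeq 0.12.3 and the builds GRCm38 and mm10, without the role of each. In the deposited FPKM each gene's count is scaled by 1 length that is the same in every library and by that library's total. The 10 genes and all lists were chosen with earlier results of these data known.

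Each tissue's 48 libraries were fitted by edgeR 4.0.16 quasi-likelihood (R 4.3.3; TMM scaling; filterByExpr with a minimum count of 10 and a minimum total of 15) with terms for 6 genotypes and sex. P-values were adjusted by Benjamini-Hochberg over all genes tested, with a threshold of 0.05. The tissue comparison used 96 libraries, with no term for the mouse in the main fit. CPM are on TMM-scaled library sizes, and log2 CPM used a prior count of 1. Correlations across mice used 100000 permutations. All 10 members are named, with up to 3 other genes per family list by smallest adjusted p in striatum (some items of this rule are not reported here), and for each member the 2 genes of largest r in each tissue. The alternatives changed the threshold (0.1), the scaling (RLE), the count filter (none), the tool (DESeq2 1.42.0, or limma-trend from limma 3.58.1 on log2 of FPKM plus 0.1 or 1) or the model (without sex, with the prefix of the animal number, with libraries of the compared groups alone, or with the animal as a block). P-values measure the spread between these mice. On data simulated for Q140 against wild type in striatum over 17408 genes, the fit recovered 85% of 100 genes changed by 1.25-fold and 100% of 100 changed by 2-fold, and called 11 unchanged genes. The changed genes were drawn only from those with higher mean CPM, so the rates do not cover genes of low counts such as Zfpm2 in striatum.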

Additional observations from a re-analysis of the deposited data

Results flagged for a closer look

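Of 120 groups of 8 libraries (10 genes, 6 genotypes, 2 tissues), 5 held a library whose gap to its nearest neighbour, divided by the group's range, was above Dixon's critical value at 95% for 8 samples. Chance alone flags about 1 group in 20. Tenm2 was lowest in the cortex of Q140 Msh6-/- mouse 38-1, at 90.5 CPM with the next mouse at 123. It was also lowest in the striatum of Q140 mouse 24-1, at 92.1 CPM with the next at 124. Zfpm2 was lowest in the cortex of Msh6+/- mouse 23-1, at 10.3 CPM with the next at 12.8, and highest in the cortex of Q140 Msh6+/- mouse 16-4, at 11.6 CPM with the next at 10.6. Adam33 was highest in the striatum of Msh6+/- mouse 18-4, at 0.556 CPM with the next at 0.273, values that rest on few counts.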

How the results depend on the processing

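The counts compared were of members called, or, for the cortical Q140 pairs, of members lower with Q140. Counts of 0 that stayed at 0 are included. Of these counts, 112 values under alternatives stayed within 1.5 times of the reported count and 1 did not. The exception was the number of members correlated between the tissues across mice, which was 1 with the animal number prefix also removed, not 2. With the animal as a replicate block, the paired tissue comparison again called 8 members. Signs turned for single genes whose log2 values lie near 0. Females against males in cortex, Tenm2 was -0.000143 with the prefix as a covariate and -0.00391 in limma-trend on FPKM plus 0.1, and Myo5c in striatum was -0.00493 in the latter. Tenm2 in the striatum of Q140 against wild-type mice was -0.00457 with RLE scaling, -0.00304 with no filter and -0.00522 in DESeq2. Pknox2 in striatum was 0.00279 (FPKM plus 0.1, with or without a filter) and 0.00283 (plus 1) in the Msh6+/- pair, and 0.00560 and 0.00469 in the Msh6-/- pair. The correlation of Zfpm2 between tissues was 0.00241 with the prefix removed. The cause of these turns was not tested. Counts over all genes moved more: in cortex DESeq2 called 1 higher and 21 lower in the Msh6+/+ pair (edgeR 3 and 0) and 26 and 119 in the Msh6+/- pair (edgeR 13 and 21), and in striatum limma-trend on FPKM plus 0.1 called 5370 higher and 1509 lower in the Msh6+/+ pair (edgeR 2719 and 2482). Depth limits Adam33 in striatum to 1 to 13 counts a library.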

Other observations

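Among the deposited gene symbols 27 had been turned into calendar dates, and all 27 have an Ensembl identifier that GENCODE M21 names. None of the 10 genes was among them, but Sept5, whose cortical level was among the 2 most like those of Myh7 and of Gpr153, appears in this form.

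The cortical Q140 difference of Abca8a ran in the other direction from those of the 10 genes, and it was the 1 gene off chromosome 5 called in all 3 pairs, at 0.44, 0.35 and 0.50 on the log2 scale in Msh6+/+, Msh6+/- and Msh6-/- mice. It was singled out after its values were seen.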
